A study of Mus musculus with 6 samples.

Results

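Described here are 10 genes, 9 of them immediate early genes (Fos, Fosb, Jun, Junb, Atf3, Egr1, Ier2, Ier3 and Dusp1) and the growth regulator Myc, out of 19938 genes measured on the arrays. The members were the probe sets whose platform annotation gives 1 gene symbol and that symbol is one of the 10, and each gene had exactly 1 such probe set. The GFP-positive group holds 3 arrays of liver cells that the labels call replicating, and the GFP-negative group holds 3 arrays of cells called quiescent. Both fractions came from CyclinB1-GFP transgenic mice aged 3.5 weeks, so the controls carry the reporter too, and the promoter that drives it is not given in the sources used here. The 3 livers were perfused, dissociated and sorted by fluorescence, so each fraction is a gate on a reporter and not a purified cell type.

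Immediate early genes are switched on within minutes of a signal without new protein synthesis, largely through serum response factor and CREB acting downstream of MAP kinases. Fos, Fosb, Jun, Junb and Atf3 encode leucine zipper proteins that pair into the AP-1 transcription factors or close relatives, Egr1 encodes a zinc finger factor, and Dusp1 encodes a phosphatase that switches MAP kinases off. In liver these genes respond both to mitogens, as after partial hepatectomy, and to the stress of taking the tissue apart. The comparison sets replicating against quiescent cells for a group of genes that both influences are known to induce. Per the protocols both fractions went through the same perfusion and sort, and no array of undissociated liver was analysed here, so the level before dissociation is not part of the comparison.

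The sort separated dividing cells, with all 14 mitosis genes of a check list higher in GFP-positive cells (median log2 difference 3.88), among them Cdk1, the kinase of mitotic entry, at 22.7-fold and Top2a, which untangles replicated DNA, at 21.9-fold. All 11 hepatocyte markers measured lay above the array medians in both groups. Array medians ran from 24.3 to 26.7 on the linear scale, or 4.60 to 4.74 as log2, and with 3 arrays a group precision is limited. The female-specific transcript Xist reached 9.80 (GFP-positive) and 9.03 (GFP-negative) as log2 on the arrays of number 2, and lay between 3.73 and 4.04 on the other arrays. Arrays of the same number are therefore taken below as the same mouse, although Xist cannot tell numbers 1 and 3 apart. The standard errors, intervals and p-values below come from a fit that does not use this pairing, unless a block on the replicate number is named.

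None of the 10 genes passed the test between GFP-positive and GFP-negative cells. Limma's moderated test, adjusted by Benjamini-Hochberg over all 19938 genes at a threshold of 0.05, called 0 of 10 higher and 0 of 10 lower in GFP-positive cells, against a background of 1.55% of all genes called higher and 0.115% called lower. At an unadjusted p below 0.05, 2 of the 10 were lower (Junb and Egr1), against 3.79% of all genes. The adjusted p of the 10 ran from 0.35 to 0.97. Blocking on the replicate number also called 0 of 10 (1.64% of all genes were then called higher and 0.14% lower), and 3 of 10 were lower at an unadjusted p below 0.05, against 3.91% of all genes. The point estimates lay mostly on one side: 9 of 10 differences were negative, as were 55.7% over all genes, and the median log2 difference was -0.30 against -0.03 for all genes. Throughout, differences are GFP-positive minus GFP-negative log2 intensities. In sorted bulk samples, fewer cells of a type that expresses a gene and less of its RNA per cell cannot be told apart.

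**Figure D1:**
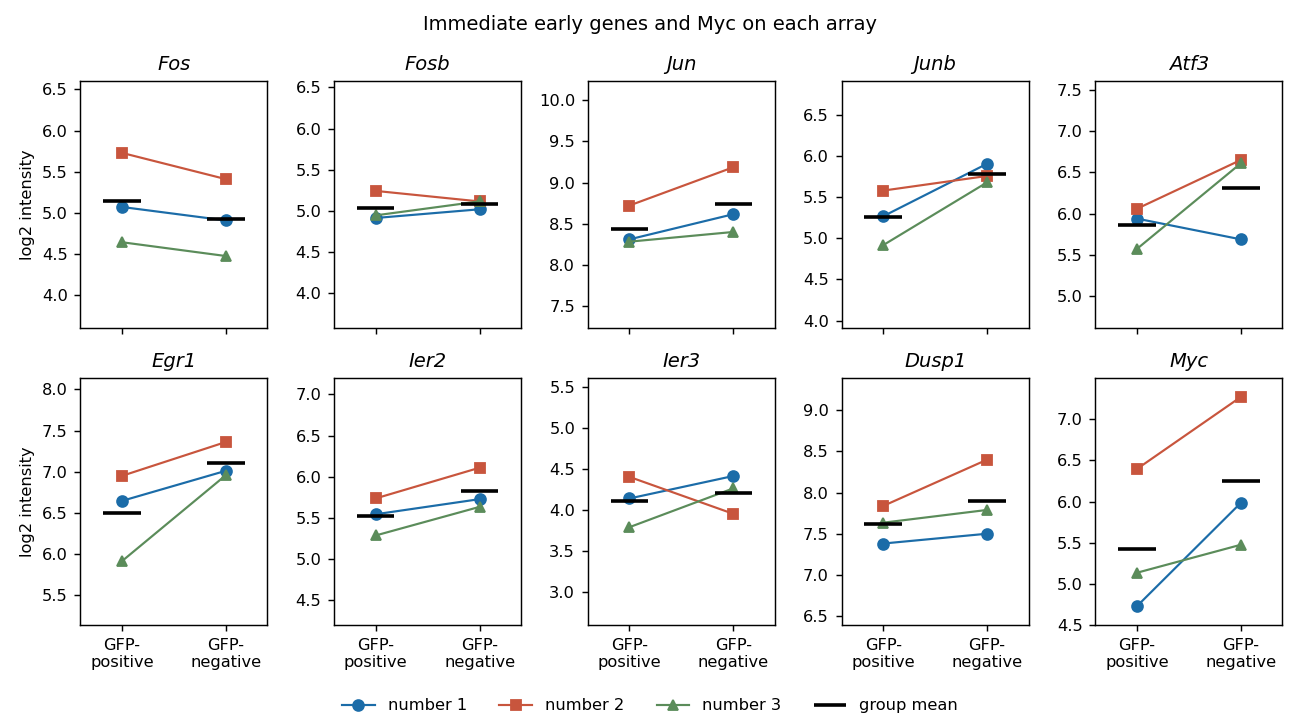
Log2 intensity of the 10 genes on each array, with GFP-positive left of GFP-negative in each panel, lines joining arrays of the same replicate number and black bars at the group means (n = 3). Every panel spans 3 log2 units. The lines of Junb, Egr1, Ier2, Jun, Dusp1 and Myc all lie lower at their GFP-positive end, those of Fos lie higher there, and number 2 is the highest GFP-positive array in all 10 panels.

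Promoters were searched for motifs because most of the 10 genes lay on one side together. RefSeq promoter windows of the GRCm38.p6 build, from 250 bases before to 50 after the start of the gene, were matched for 7 members (Fos, Fosb, Jun, Junb, Atf3, Ier3 and Dusp1), and Egr1, Ier2 and Myc had no entry. Both strands were searched for the CArG box of serum response factor, the CREB element TGACGTCA, its 5-base core TGACG, the AP-1 site TGANTCA, the Egr motif GCGGGGGCG, the E-box CACGTG bound by Myc, and TATAAA. The core TGACG, which every full TGACGTCA also contains, occurred in 5 of the 7 windows (Fos, Fosb, Junb, Atf3 and Dusp1) and in 20.8% of all 32851 windows. The windows of Fos, the member above 0 in every number, of Junb, with groups apart, and of Dusp1, with the full element, are shown 5′ to 3′ with all matches in capitals.
Fos: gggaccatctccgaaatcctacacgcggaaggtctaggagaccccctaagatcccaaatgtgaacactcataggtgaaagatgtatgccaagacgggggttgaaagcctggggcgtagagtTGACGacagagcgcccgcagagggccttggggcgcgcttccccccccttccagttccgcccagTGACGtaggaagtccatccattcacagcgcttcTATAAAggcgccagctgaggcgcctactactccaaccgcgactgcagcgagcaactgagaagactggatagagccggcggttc
Junb: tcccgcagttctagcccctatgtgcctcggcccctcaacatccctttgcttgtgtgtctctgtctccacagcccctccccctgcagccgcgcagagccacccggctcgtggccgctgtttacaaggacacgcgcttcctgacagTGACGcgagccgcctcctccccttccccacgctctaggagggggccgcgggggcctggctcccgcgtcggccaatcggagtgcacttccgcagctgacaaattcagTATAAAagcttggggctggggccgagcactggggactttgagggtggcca
Dusp1: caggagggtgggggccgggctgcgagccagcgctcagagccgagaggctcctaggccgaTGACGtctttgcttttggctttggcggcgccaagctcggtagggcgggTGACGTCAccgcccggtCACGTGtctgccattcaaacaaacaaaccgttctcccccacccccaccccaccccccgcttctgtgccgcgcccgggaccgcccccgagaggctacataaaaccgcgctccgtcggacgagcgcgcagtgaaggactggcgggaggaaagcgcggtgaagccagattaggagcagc

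The Fos window (chr12:85473640-85473939, plus strand) held TGACG at -129 and -66 and a TATAAA at -33, counted from the start of the gene. The Junb window (chr8:84978699-84978998, minus strand) held TGACG at -106, and a TATAAA from base 1 after the start. The Dusp1 window (chr17:26508423-26508722, minus strand) held TGACG at -191, the full TGACGTCA at -143 to -136, found in 1.79% of all windows, and a CACGTG at -126, found in 7.15%. TGANTCA (7.81% of all windows) and the CArG box (1.63%) had 0 matches among the 7 windows, and GCGGGGGCG (2.91%) had 1, in Fosb. TATAAA occurred in 13.6% of all windows. The windows of Jun and Ier3 held no exact match to any of the motifs, and near matches were not searched for. TGACG did not go with one direction. Of the genes with it, Junb and Dusp1 were lower in every number, Fos was higher, and Fosb and Atf3 had mixed signs. Jun, without an exact match, was lower in every number. These matches describe letters within 300 bases and say nothing of binding, of sites outside these windows, or of Egr1, Ier2 and Myc.

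Fos, a member of the AP-1 family, had log2 intensities of 5.07, 5.73 and 4.64 in GFP-positive cells of numbers 1, 2 and 3. Those in GFP-negative cells were 4.91, 5.41 and 4.48. The groups overlapped almost completely, while within each number the GFP-positive array was the higher one, by 0.16, 0.32 and 0.17. The difference was 0.22 ± 0.30 (SE, n = 3 per group, adjusted p = 0.92), with a 95% interval from -0.45 to 0.89, so a rise of up to 1.85-fold or a fall of up to 1.37-fold lay within it. With the replicate number as a block in limma the interval was -0.13 to 0.57 (adjusted p = 0.83). Fos was the 1 member above 0 in all 3 numbers, a pattern held by 12.8% of all genes. Number 3 was below its array median in both groups, so the level of Fos lay close to the middle of the array signal.

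Fosb, a Fos paralog that joins Jun proteins in the same way, was close to flat, at 4.91, 5.24 and 4.95 in GFP-positive cells against 5.02, 5.11 and 5.12 in GFP-negative cells. Its difference of -0.05 ± 0.14 had the narrowest interval of the 10 genes, from -0.37 to 0.27 (adjusted p = 0.97). The numbers disagreed in sign, with number 2 above 0 and the other two below. A change beyond 1.29-fold downward or 1.21-fold upward lay outside this interval. All 6 values lay above the array medians (4.60 to 4.74) but close to them. Whether signals this low were compressed was not tested.

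Jun, the usual partner of Fos, had 8.31, 8.72 and 8.28 in GFP-positive cells, against 8.62, 9.19 and 8.40 in GFP-negative cells. The GFP-positive array was lower in every number, by margins that ran from -0.12 in number 3 to -0.47 in number 2, but the groups overlapped because number 2 was high in both. The difference was -0.30 ± 0.22 (95% interval -0.79 to 0.19, adjusted p = 0.82). Junb, a Jun family member that can hold back Jun at cell cycle genes, had 5.27, 5.58 and 4.92 in GFP-positive cells, against 5.91, 5.76 and 5.68 in GFP-negative cells. Its groups did not overlap, and its adjusted p of 0.35 was the lowest of the 10 genes in limma (-0.53 ± 0.18, 95% interval -0.94 to -0.12, unadjusted p = 0.017, 1.44-fold lower, lower in 3 of 3 numbers).

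Atf3, a stress-induced leucine zipper factor that can repress AP-1 targets, had 5.94, 6.06 and 5.57 in GFP-positive cells, against 5.69, 6.65 and 6.61 in GFP-negative cells. Numbers 2 and 3 differed by -0.59 and -1.04 while number 1 differed by 0.25, so the groups overlapped through the GFP-negative array of number 1. The difference was -0.46 ± 0.26 (95% interval -1.04 to 0.12, adjusted p = 0.70). Without GFP-negative 1, a single array, the difference was -0.78 (adjusted p = 0.16).

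Egr1, a zinc finger factor induced through serum response elements, had 6.64, 6.95 and 5.91 in GFP-positive cells, against 7.01, 7.36 and 6.96 in GFP-negative cells. All 3 GFP-positive arrays lay below all 3 GFP-negative arrays, narrowly for number 2 and by more than a log2 unit between the arrays of number 3. The difference was -0.61 ± 0.25, or 1.52-fold lower (95% interval -1.17 to -0.05, unadjusted p = 0.037, adjusted p = 0.50). With the replicate number as a block in limma the interval was -1.03 to -0.19 (unadjusted p = 0.0094, adjusted p = 0.24). Without GFP-positive 3 the unblocked difference was -0.31. Egr1 and Junb were the 2 of 10 genes whose groups lay apart, both lower. Among all genes 6.98% lay apart in that direction and 6.82% in the other.

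Dusp1, the phosphatase that removes MAP kinase activity after induction, had 7.38, 7.84 and 7.63 in GFP-positive cells, against 7.50, 8.40 and 7.79 in GFP-negative cells. It was lower in all 3 numbers, by 0.12, 0.56 and 0.16 log2 units in numbers 1, 2 and 3, and its groups overlapped (-0.28 ± 0.23, 95% interval -0.80 to 0.24, adjusted p = 0.85). Ier2, a nuclear protein gene induced by growth factors, had 5.54, 5.74 and 5.29 in GFP-positive cells, against 5.73, 6.11 and 5.63 in GFP-negative cells. Ier2 too was lower in all 3 numbers with overlapping groups (-0.30 ± 0.18, 95% interval -0.70 to 0.10, adjusted p = 0.73). Without GFP-negative 2 the difference was -0.03 for Dusp1, -0.16 for Ier2 and -0.07 for Jun.

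Ier3, a survival gene induced by NF-kappaB and growth factors, stood at 4.14, 4.40 and 3.79 in GFP-positive cells, against 4.41, 3.95 and 4.26 in GFP-negative cells. All 6 values lay below the medians of their arrays, so no fold is given. The numbers disagreed in sign (-0.27, 0.45 and -0.47), and the difference was -0.10 ± 0.19 (adjusted p = 0.95).

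Myc, a leucine zipper factor of another class that drives ribosome production and cell growth, had the largest difference and the widest spread of the 10. Its log2 intensities were 4.73, 6.39 and 5.13 in GFP-positive cells, against 5.98, 7.27 and 5.47 in GFP-negative cells. The GFP-positive array was lower in every number (by 1.26, 0.88 and 0.34 log2 units in numbers 1, 2 and 3), yet GFP-positive cells of number 2 exceeded GFP-negative cells of numbers 1 and 3. The difference was -0.82 ± 0.49, a 1.77-fold lower mean, with a 95% interval from 3.82-fold lower to 1.22-fold higher (adjusted p = 0.74). With the replicate number as a block the standard error was 0.20 and the interval -1.27 to -0.38, and the adjusted p of 0.10 remained above the threshold. Without GFP-negative 2 the difference was -0.31, and without GFP-positive 2 it was -1.31.

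**Figure D2:**
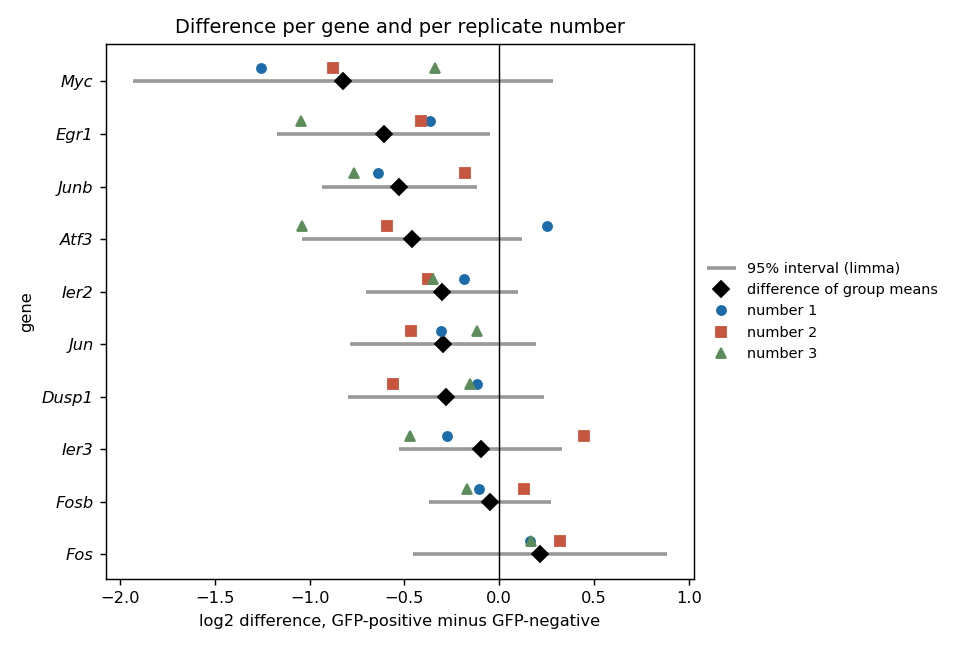
Log2 difference, GFP-positive minus GFP-negative, for each of the 10 genes: diamonds are differences of the group means, grey bars the 95% intervals from limma, and coloured marks the differences within numbers 1, 2 and 3. The intervals are from the fit without the replicate block. Those of Junb and Egr1 lie below 0 before adjustment, and the other 8 include 0. In the blocked fit that of Myc also lies below 0 before adjustment.

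Across the numbers, 6 of the 10 genes (Jun, Junb, Egr1, Ier2, Dusp1 and Myc) were lower in GFP-positive cells of every number, a pattern that 15.3% of all genes showed. The median difference of the 10 genes was -0.23, -0.39 and -0.34 in numbers 1, 2 and 3, while the median over all genes was -0.01, 0.02 and -0.06. Counted by number, 8, 7 and 9 of the 10 were lower in GFP-positive cells.

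The numbers themselves also differed. In GFP-positive cells number 2 was the highest array for all 10 genes, as it was for 40.1% of all genes, and in GFP-negative cells for 7 of 10, as for 31.1% of all genes. It was the highest in both groups for 7 of the 10 (Fos, Jun, Atf3, Egr1, Ier2, Dusp1 and Myc), against 11.3% of all genes. The mean log2 intensity over the 10 genes was 5.79, 6.26 and 5.61 in GFP-positive cells of numbers 1, 2 and 3, against 6.08, 6.52 and 6.04 in GFP-negative cells, so GFP-positive cells of number 2 exceeded GFP-negative cells of numbers 1 and 3. For 9 of the 10 genes, Junb being the exception, the range over the means of the 3 numbers was wider than the difference between the groups, as it was for 71.4% of all genes.

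A test between the numbers in the blocked limma fit, added after these values were seen, called 0 of the 10 genes at an adjusted p below 0.05, against 0.166% of all genes. Of the 10, 5 had an unadjusted p below 0.05 (Fos, Jun, Egr1, Dusp1 and Myc), against 5.12% of all genes. Myc came closest, with an adjusted p of 0.088 and a range of 1.53 log2 units over the means of the numbers, followed by Fos with 1.01 log2 units (adjusted p = 0.33). Number 2 alone was Xist-high, so sex, the individual mouse and the handling of that liver cannot be told apart.

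The wider immediate early response was read from 42 other genes of that class, of which 1 rose, none fell and 30 had negative differences (median -0.17). For this list and the related lists below, the shares over all genes were 1.55% called higher, 0.115% called lower, 55.7% negative and 15.3% lower in every number. The 1 that rose was Klf6, a zinc finger factor gene, at 6.24, 6.54 and 6.14 in GFP-positive cells, against 5.13, 5.53 and 5.36 in GFP-negative cells (0.96 ± 0.17, adjusted p = 0.016, higher in 3 of 3 numbers). Its adjusted p was 0.23 without both arrays of number 1 and 0.12 without both of number 3. Among 13 other AP-1 and small Maf genes none passed, 10 had negative differences, and 7 were lower in every number (median -0.14). The largest difference among these was that of Fosl2, a Fos family gene, with 5.18, 4.70 and 4.81 in GFP-positive cells against 5.34, 5.32 and 5.59 in GFP-negative cells (-0.52 ± 0.17, adjusted p = 0.29), of which 1 GFP-positive value lay below its array median. Fosl2 thus had groups that did not overlap, as Junb had, without passing the test.

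Other stress responses gave medians nearer to that of all genes. None of 14 heat shock genes passed, and 10 of them had negative differences (median -0.04). The largest difference there was upward, in the cytosolic chaperone gene Hsp90aa1, which had 11.49, 11.12 and 11.41 in GFP-positive cells against 10.92, 9.90 and 10.87 in GFP-negative cells (0.78 ± 0.26, adjusted p = 0.33). None of 16 genes of the ATF4 branch of the stress response, which can induce Atf3, passed, and 11 had negative differences (median -0.09). The largest difference among them was that of the lipoprotein receptor gene Vldlr (-0.76 ± 0.30, adjusted p = 0.48). Vldlr lay below the array medians on all 3 GFP-positive arrays and on 1 GFP-negative array. Its fold is therefore given after raising values under an array's median to that median, as a point estimate of 1.32-fold lower.

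**Figure D3:**
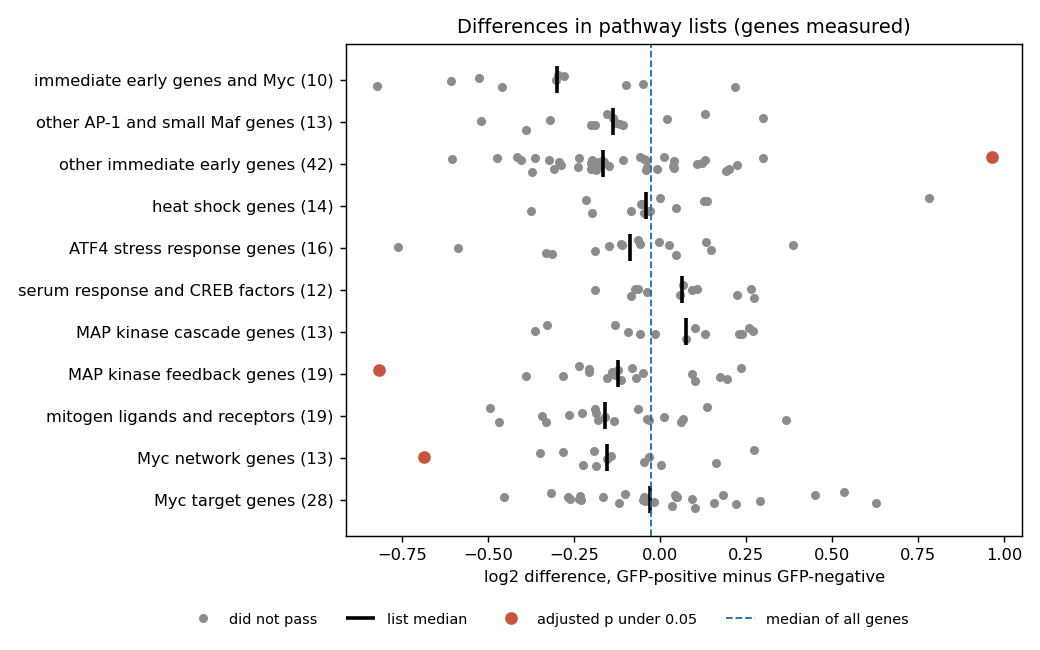
Log2 difference, GFP-positive minus GFP-negative, of every measured gene in the 10 genes described and in 10 related lists, with the number measured in brackets. Black bars are list medians, the dashed line is the median of all genes, and filled red points passed at an adjusted p below 0.05: Klf6 upward, Phlda1 and Mycn downward.

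On the signalling side, 19 MAP kinase feedback genes, many of which are transcribed when the ERK pathway is active, had 0 rises and 1 fall (median -0.12). The 1 that fell was Phlda1, a pleckstrin homology-like domain gene induced by growth factors, at 8.10, 8.02 and 7.78 in GFP-positive cells, against 8.80, 8.93 and 8.62 in GFP-negative cells. Its groups lay well apart (-0.82 ± 0.15, adjusted p = 0.026, 1.76-fold lower, lower in 3 of 3 numbers), with an adjusted p of 0.23 without both arrays of number 1. None of 13 MAP kinase cascade genes passed (median 0.07, largest difference -0.36 ± 0.43 for the p38 kinase kinase gene Map2k6, adjusted p = 0.90). None of 12 serum response and CREB factor genes passed either (median 0.06, largest difference 0.27 ± 0.15 for the coactivator gene Crebbp, adjusted p = 0.70). Among 19 mitogen ligands and receptors none passed (median -0.16), and the largest difference was -0.49 ± 0.17 for Il6st, the shared receptor subunit of the interleukin 6 family (adjusted p = 0.38).

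Around Myc, 13 genes of its network had 0 rises and 1 fall (median -0.16). The fall was that of Mycn, a Myc paralog, with 4.42, 4.72 and 4.55 in GFP-positive cells against 5.26, 5.21 and 5.28 in GFP-negative cells (-0.69 ± 0.14, adjusted p = 0.042, lower in 3 of 3 numbers). With the replicate block its adjusted p was 0.092, and leaving out single arrays took it to between 0.043 and 0.20. The GFP-positive values of numbers 1 and 3 lay below their array medians. The fold of Mycn, 1.47-fold lower, is therefore a point estimate computed after raising values under an array's median to that median. None of 28 Myc target genes passed, with 15 below 0 and 13 above (median -0.03, equal to that of all genes to 2 decimals). The largest difference was upward, for the ribosome assembly gene Nop58 (0.63 ± 0.21, adjusted p = 0.33).

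**Figure D4:**
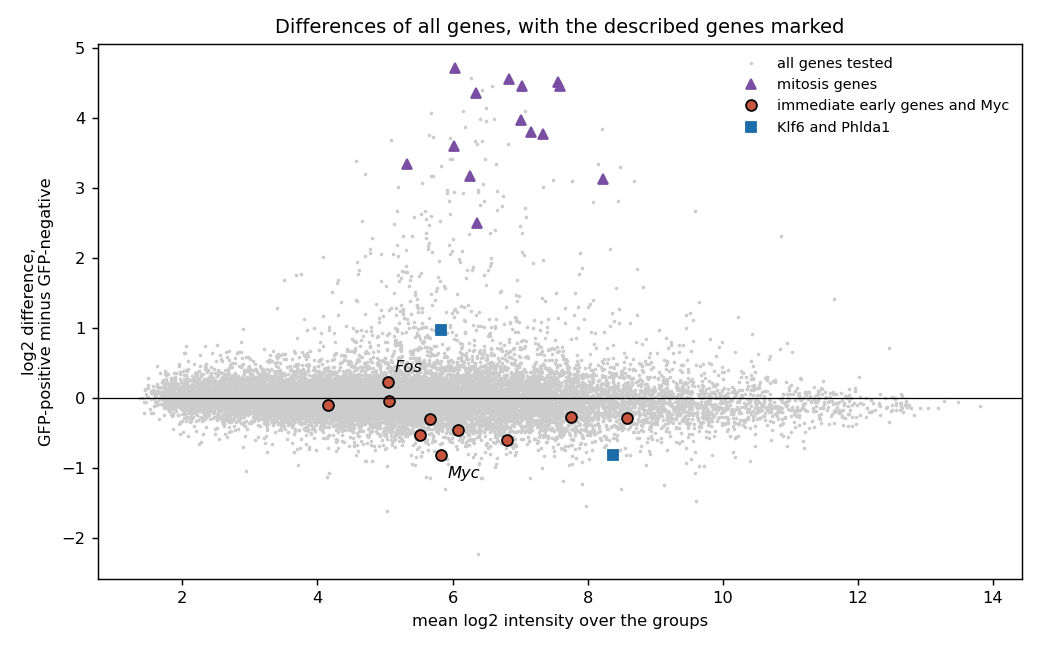
Log2 difference, GFP-positive minus GFP-negative, against mean log2 intensity for 19938 genes (grey). The 10 described genes (circles) lie between -0.82 and 0.22. The 14 mitosis genes (triangles) lie between 2.49 and 4.71, and Klf6 and Phlda1 (squares) lie above and below 0.

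Summed markers of 3 non-hepatocyte cell types, and those of hepatocytes, were lower on the GFP-positive arrays, the direction of 9 of the 10 genes. The summed linear intensity of 13 Kupffer cell and macrophage markers was 241 to 261 in GFP-positive cells, against 279.7 to 339 in GFP-negative cells. That of 13 endothelial markers was 384 to 396 in GFP-positive cells, against 414 to 505 in GFP-negative cells. That of 12 stellate cell and fibroblast markers was 410.0 to 460.5 in GFP-positive cells, against 523 to 577 in GFP-negative cells. In each of these 3 lists every GFP-positive array lay below every GFP-negative array. The part of these cell types in the values of the immediate early genes was not tested. Gene by gene, 8 of 13 Kupffer, 10 of 13 endothelial and 10 of 12 stellate markers had negative differences, against 55.7% of all genes. The other 5, 3 and 2 markers had positive ones. Lower in every number were 4, 3 and 6 markers of these lists, against 15.3% of all genes. The Kupffer and endothelial sums were, like Myc, highest in number 2 of both groups. Lower sums without overlap were not particular to markers. The ATF4 genes summed to 1476 to 1533 in GFP-positive cells, against 1584 to 1815 in GFP-negative cells. The mitogen ligands and receptors summed to 3237 to 3822, against 4065 to 4346. The sums of the other related lists overlapped between the groups.

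Single markers mostly did not pass. Of the Kupffer markers, Clec4f, a Kupffer cell lectin gene, fell (-0.68 ± 0.13, adjusted p = 0.032, and 0.077 in the blocked fit), and 11 of 13 lay below the array medians in GFP-positive cells against 10 in GFP-negative cells. No endothelial or stellate marker passed, and the largest differences were -0.71 ± 0.27 for the junction gene Cdh5 (adjusted p = 0.44) and -0.86 ± 0.26 for the matrix gene Dcn (adjusted p = 0.24). Below the array medians were 5 of 13 endothelial markers in GFP-positive cells against 2 in GFP-negative cells, and 4 of 12 stellate markers against 3. No member of the 4 remaining lists passed, and their summed intensities overlapped between the groups for the cholangiocyte, lymphoid, erythroid and neutrophil markers. The largest erythroid difference was -0.65 for Car1, above the array medians on all 6 arrays. The largest neutrophil difference was that of S100a8, which lay below the medians on 3 GFP-positive and 2 GFP-negative arrays. Its fold after raising such values to the array medians was a point estimate of 1.05-fold lower. Cftr and Ms4a1, with the largest differences of the cholangiocyte and lymphoid lists, lay below the medians on all 6 arrays, so no fold is given. The 11 hepatocyte markers summed to 64299 to 67371 in GFP-positive cells, against 69772 to 72984 in GFP-negative cells, so these sums too lay apart. None of the 11 passed, and 10 had negative differences (median -0.11, largest difference -0.18 for the fibrinogen gene Fgb, adjusted p = 0.81).

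**Figure D5:**
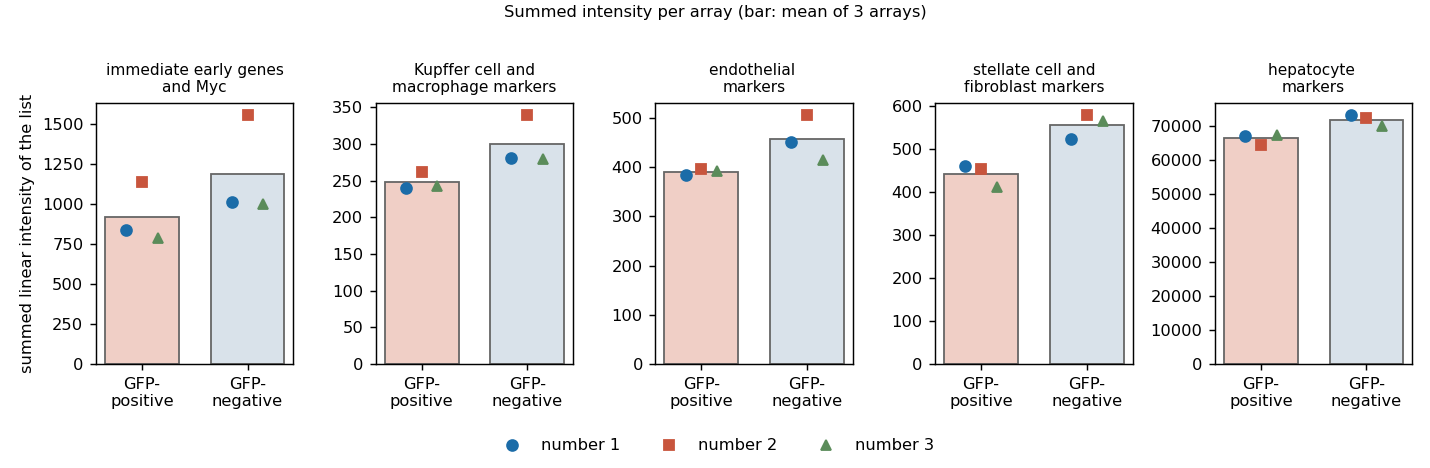
Summed linear intensity per array of the 10 described genes and of 4 marker lists, with bars at the mean of 3 arrays, GFP-positive left of GFP-negative, and marks for numbers 1, 2 and 3. GFP-positive arrays lie below all GFP-negative arrays in the 4 marker lists, whereas for the 10 genes number 2 of GFP-positive cells (1138) lies above numbers 1 and 3 of GFP-negative cells (1014 and 1002).

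The genes most like Fos and Myc over the 6 arrays were found by the root mean square difference of log2 values after centring each gene on its own mean, with clone and predicted names left out. For Fos the closest were Psg28, Ppbp and Spats2l, at 0.147, 0.149 and 0.153, where Fos itself varied by 0.43 around its mean. Psg28, a pregnancy-specific glycoprotein gene, and Ppbp, a platelet chemokine gene, lay below the array medians on all 6 arrays. For Myc, which varied by 0.84, the closest were Rgs2, a regulator of G protein signalling, Bhlhe40, a helix-loop-helix repressor gene of the circadian system, and Orm3, an acute phase protein gene, at 0.26, 0.31 and 0.33. Rgs2 lay below the array medians on 3 GFP-positive and 2 GFP-negative arrays and Orm3 on 2 of each, while Bhlhe40 lay above them on all 6. Bhlhe40 had 6.01, 7.21 and 6.48 in GFP-positive cells, against 6.66, 7.99 and 6.90 in GFP-negative cells, and like Myc it was highest in number 2 of both groups and lower in GFP-positive cells of every number (-0.62 ± 0.37, adjusted p = 0.74). Since 6 arrays from 3 mice carry few independent values, this likeness is a description.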

How the data were processed

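Each probe set has 1 deposited intensity on every array, which the authors computed with RMA, per the submitters' processing notes (version and settings not given in the sources used here). The intensities are on a linear scale (1.62 to 15836), so log2 was taken and nothing further was normalized. Per the labels' protocols, 10 ng of RNA per sample was amplified before hybridisation, which can compress or distort low signals. Of 35512 probe sets, 21789 have 1 gene symbol, updated through Entrez identifiers for 21698 of them. Where a gene had several probe sets, the brightest on average stood for it, giving 19938 genes. No detection calls were used.

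Groups were compared with limma 3.58.1 under R 4.3.3 (eBayes without a trend, 4 residual and 5.44 prior degrees of freedom), with Benjamini-Hochberg adjustment over all genes and a threshold of 0.05. The procedure was checked on simulated data with 3 arrays per group. It called 6% of changes of 0.5 log2 units, 52% of changes of 1 and 96% of changes of 2, and 5.93% of its calls were false. Changes of up to 1 log2 unit were thus often missed. The simulated variances followed those of all genes. The median standard error was 0.22 for the 10 genes against 0.16 for all genes, so changes in the 10 can be missed more often. Lists were described by counts and medians, without a set test, and 19 of 313 listed symbols had no match and were left out. The 10 genes and all lists were chosen with earlier results of these data known. Beside the 10 genes, the text names the called members of each related list (at most 3), or, failing any call, its member with the largest absolute difference, 1 marker per cell type, and the 3 genes most like Fos and Myc. Alternatives were the replicate number as a block, quantile normalization, centring, a filter on low means, the mean of probe sets, an intensity trend, array weights, every probe set tested alone, a threshold of 0.1, and leaving out each array or both arrays of a number.

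The design text states that both fractions came from the same 3 livers, and Xist and Eif2s3y set number 2 apart in both groups. Eif2s3y was 2.24 and 1.98 there and at least 6.78 elsewhere. After subtracting group means, same-numbered arrays correlated across genes by 0.20, 0.06 and -0.05 (numbers 1, 2 and 3), so that check alone would not pair them. Python 3.11.15 with pandas 2.3.3, numpy 2.4.6 and matplotlib 3.10.9 was used for descriptions and figures.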

Additional observations from a re-analysis of the deposited data

How the results depend on the processing

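The number of arrays, 3 per group, limits the precision, and Ier3 on all 6 arrays and Fos on 2 of 6 lay below the array medians. Under all 18 alternatives 0 of the 10 genes were called in either direction, and the lowest adjusted p any of them reached was 0.10 (Junb with array weights). The filter on low means left Ier3 out. With the replicate number as a block 0 members were again called, with adjusted p from 0.10 (Myc) to 0.98, and 3 of 10 had an unadjusted p below 0.05 (Junb, Egr1 and Myc). Among the 188 genes of the related lists the block left 1 called lower in place of 2, Phlda1 without Mycn, and among the markers 0 in place of 1. Within the 10 genes, the related lists and the markers, the block changed no other call. Array weights called 3 related genes lower, the third being the stress gene Gadd45b (adjusted p = 0.044, against 0.11 without weights), named after its values were seen. When every probe set was tested alone, 0 related genes were called higher, 0 lower and 0 markers lower. The median difference of the 10 genes was -0.32 with quantile normalization and -0.33 with centring, where the medians of all genes were -0.08 and -0.06. When single arrays, or both arrays of a number, were left out, this median ran from -0.42 (without GFP-positive 2) to -0.19 (without GFP-negative 2), and the counts ran from 0 to 1 related gene called higher, from 0 to 1 called lower and from 0 to 1 marker called lower. The direction turned in such fits for Fos (-0.074 to 0.47, below 0 without GFP-positive 2 or GFP-negative 3), Fosb (-0.15 to 0.011), Ier3 (-0.37 to 0.088), Map2k6 (-0.74 to 0.17) and Cftr (-0.47 to 0.18). The other 7 members kept their sign in every fit. The adjusted p of Klf6 ran from 0.023 to 0.23, that of Phlda1 from 0.040 to 0.23, that of Mycn from 0.043 to 0.55 and that of Clec4f from 0.070 to 0.37. The causes were not tested.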
